A study of Mus musculus with 6 samples.

Results

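The levels of 6 genes of the cell cycle and DNA replication, out of 55359 rows in the deposited table, were followed in the lung squamous carcinoma lines UN-SCC679 and UN-SCC680: the cyclin genes *Ccne2* and *Ccnc*, the origin recognition gene *Orc3*, the condensin gene *Smc2*, the kinase gene *Melk* and the cullin gene *Cul2*. The members were chosen by name and by position, since most gene positions in the table are displaced from those of GRCm38 (mm10), the build named for the reads. A row was kept where its lowest start lay under 58.6 Mb on chromosome 4 or under 5.8 Mb on chromosome 18, where most comparable rows lie close to their GRCm38 position, and all 6 members passed. Both lines are adherent cultures that go back to NTCU-induced lung tumors of A/J mice, NTCU being the carcinogen N-nitroso-tris-chloroethylurea. Each line comes from a tumor of a different mouse and was grown in immunodeficient and then in A/J mice before the working line was set up, so each line stands for 1 tumor and its culture history. The study describes a mutated *Trp53* in the first line and a mutated *Rb1* in the second. No treatment was given, and polyA RNA was sequenced in 3 libraries of each line.

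The cell cycle is driven by cyclins, which switch on cyclin-dependent kinases, and by ubiquitin ligases, which remove regulators once their step is done. At the entry into S phase cyclin E with Cdk2 fires origins that the origin recognition complex has marked, and in mitosis condensin compacts the copied chromosomes. Many of these genes are transcribed in waves under E2F factors and, for the later ones, under a promoter element called CHR (cell cycle genes homology region), so their RNA is commonly high in dividing cells and low in resting ones. Squamous lung carcinomas are known for frequent loss of the brakes on this machinery, p53 and the RB pathway among them. In bulk RNA, fewer cycling cells and less RNA per cycling cell cannot be told apart. The study reports that both lines proliferated at similar rates in culture and in immunodeficient mice. The share of cycling cells in the sequenced cultures was not measured here.

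RefSeq (GRCm38.p6) gave promoter windows, 250 bases before to 50 after the start site, for *Ccnc*, *Orc3*, *Smc2* and *Melk*. They are the windows found in the RefSeq table among the 5 members that were higher in UN-SCC680, as described further on, *Ccne2* being the other, and are printed 5′ to 3′ on the strand of the gene to show their motifs. Capitals mark every match, on either strand, to an E2F word (TTTCCCGC, TTTGGCGC, TTTCGCGC or TTTGCCGC), a CHR word (TTTGAA or TTCGAA) or CCAAT.
Ccnc (chr4:21727451-21727750, plus strand): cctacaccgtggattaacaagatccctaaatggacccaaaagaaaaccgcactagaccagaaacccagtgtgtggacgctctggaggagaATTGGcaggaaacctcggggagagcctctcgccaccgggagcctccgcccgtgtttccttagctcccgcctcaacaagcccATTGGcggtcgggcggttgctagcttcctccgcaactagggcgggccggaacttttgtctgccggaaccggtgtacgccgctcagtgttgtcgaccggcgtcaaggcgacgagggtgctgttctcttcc
Orc3 (chr4:34614893-34615192, minus strand): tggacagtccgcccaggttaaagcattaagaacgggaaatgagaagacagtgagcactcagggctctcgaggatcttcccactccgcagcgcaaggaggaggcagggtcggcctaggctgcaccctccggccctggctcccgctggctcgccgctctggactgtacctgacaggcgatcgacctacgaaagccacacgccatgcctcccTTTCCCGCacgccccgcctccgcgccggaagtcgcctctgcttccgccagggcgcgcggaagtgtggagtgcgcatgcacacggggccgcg
Smc2 (chr4:52438971-52439270, plus strand): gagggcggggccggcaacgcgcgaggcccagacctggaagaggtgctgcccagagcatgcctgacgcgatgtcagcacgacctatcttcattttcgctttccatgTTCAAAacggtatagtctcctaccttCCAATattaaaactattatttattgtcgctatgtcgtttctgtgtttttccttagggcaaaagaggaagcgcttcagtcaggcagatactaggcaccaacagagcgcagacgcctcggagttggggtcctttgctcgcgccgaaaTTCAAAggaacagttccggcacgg
Melk (chr4:44300667-44300966, plus strand): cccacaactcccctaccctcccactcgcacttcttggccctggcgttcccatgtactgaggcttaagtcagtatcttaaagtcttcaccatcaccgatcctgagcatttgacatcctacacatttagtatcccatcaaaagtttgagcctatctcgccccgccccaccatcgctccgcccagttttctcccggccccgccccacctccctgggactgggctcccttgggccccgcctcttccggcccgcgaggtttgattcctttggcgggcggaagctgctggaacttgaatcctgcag

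The windows had little in common by these words. That of *Orc3* held 1 E2F word, 41 bases before the start site, in a window of 66.3% G and C. That of *Smc2* held 2 CHR words, both as the reverse complement, and 1 CCAAT, and had the lowest share of G and C at 52.7%. That of *Ccnc* held CCAAT 2 times as its reverse complement, and that of *Melk* held none of the words. Among the 32851 promoter windows of the same length in the RefSeq table, 2.26% held an E2F word, 19.2% a CHR word and 37.4% CCAAT. A match describes the letters only.

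The libraries of UN-SCC679 held 3568293 to 4363229 counts and those of UN-SCC680 held 4242716 to 4381885. Positions were tested on the table itself. Of the 440 rows of the chromosome 4 segment that could be compared with RefSeq by symbol, 63.6% matched GRCm38 to within 10 bases at one of their ends, with a median distance of the nearer end of 3 bases. For the 12 such rows of the chromosome 18 segment the share was 75% and the median 2 bases. The nearer end of 22 rows of the chromosome 4 segment was over 1000 bases away. That end lay at 0 bases for *Ccne2*, *Ccnc* and *Melk*, and at 19, 22 and 18 bases for *Orc3*, *Smc2* and *Cul2*. The other end differed from GRCm38 by 918 bases for *Ccne2*, 0 for *Ccnc*, -33 for *Melk*, 4015 for *Orc3*, -105 for *Smc2* and -323 for *Cul2*. Positions of single exons were not compared with GRCm38. Below, an agreeing position means an end within 10 bases of GRCm38 or any place in these segments, so rows such as *Orc3*, *Smc2* and *Cul2* count by segment alone. None of the squamous or basal markers fixed for a check of the cell type (0 of 9, *Krt5* and *Trp63* among them) lay at an agreeing position, and neither did any of 4 adenocarcinoma, 4 leukocyte or 3 endothelial markers, so the label could not be checked from these rows. The study notes that the squamous phenotype faded as the lines were passaged. Of 7 fibroblast markers 1 could be read. This was *Col1a2*, a chain of type I collagen, whose mean and SD over 3 libraries were 28060 ± 1224 CPM (read counts scaled to a common library total, with TMM factors) in UN-SCC679, falling to 2267 ± 94.2 in UN-SCC680. *Col1a2* moved opposite to the members that rose, and its part in their difference was not tested.

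In UN-SCC680 5 of the 6 members were higher, by 1.24 to 1.43 times, and *Cul2* was not called different. The comparison was made with edgeR's quasi-likelihood test over all 8987 rows that passed its low-count filter, and a call means an adjusted p-value under 5e-05. The study took this p limit for each line against normal lung basal cells, and its volcano plot added a limit on the fold change. By the p limit alone, 30.4% of all rows tested here differed and 15.3% were higher in UN-SCC680. Of the 8987 rows only 354 lay at agreeing positions, and counts elsewhere may not measure the gene that the row names. Among the 354 rows 35.3% were higher, and among the other rows of the chromosome 4 segment 41.8%. With scaling within agreeing positions alone, described at the end, *Ccne2* lost its call, *Cul2* was called lower and the other 4 kept their calls with smaller differences. The normalized levels of the 3 UN-SCC680 libraries lay above those of all 3 UN-SCC679 libraries for the same 5 members and for 31.0% of all rows tested. The labels do not say whether libraries of a line are separate cultures, so the p-values measure the spread between libraries, which may be technical.

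*Ccne2* (ENSMUSG00000028212.17, chromosome 4, 11191351 to 11204779) encodes cyclin E2, which switches on Cdk2 at the passage from G1 into S phase. Its level was 310.5, 310.4 and 313.5 normalized CPM in the UN-SCC679 libraries and 375.0, 378.2 and 406.0 in the UN-SCC680 libraries. The UN-SCC679 values were nearly the same, with an SD of 0.565% of the mean against 2.87% from counting error alone, and all UN-SCC680 values were above them. The log2 fold change of UN-SCC680 against UN-SCC679 was 0.31 (95% interval 0.225 to 0.397, adjusted p = 2.55e-08 from edgeR), the smallest of the 5 increases. It was 0.12 and not called with scaling within agreeing positions alone. Of its exon bases 17.4% are also exon bases of *Ints8*, a subunit gene of the Integrator complex on the other strand, and although the library kit keeps strand, the strand setting of the counting is not given in the sources used here. *Ints8* was also higher in UN-SCC680, with a log2 fold change of 0.25, and the part of its reads in the row of *Ccne2* was not tested.

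*Ccnc* (ENSMUSG00000028252.21, chromosome 4, 21727701 to 21759922) encodes cyclin C, the partner of Cdk8 and Cdk19 in the kinase module of Mediator, the complex that links transcription factors to RNA polymerase II. Its level was 311.9, 299.0 and 322.4 normalized CPM in UN-SCC679 and 415.2, 458.5 and 456.8 in UN-SCC680. The groups were clearly apart, although the first UN-SCC680 library lay below the other two. The log2 fold change was 0.51 (95% interval 0.425 to 0.602, adjusted p = 7.12e-14 from edgeR). In its row 5.40% of the exon bases are shared with *2610029I01Rik* on the other strand, which had 166 to 250 counts per library, and *Ccnc* had 1153 to 1981. *2610029I01Rik* was also above in all UN-SCC680 libraries, with a log2 fold change of 0.37, but was not called (edgeR adjusted p of 0.000383), and the part of its reads in the row of *Ccnc* was not tested.

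*Orc3* (ENSMUSG00000040044.12, chromosome 4, 34570796 to 34614944) encodes a subunit of the origin recognition complex, which marks the places where DNA replication can start. Its level was 420.8, 395.6 and 385.9 normalized CPM in UN-SCC679 and 563.9, 558.0 and 578.9 in UN-SCC680. Here the UN-SCC680 libraries were the tighter group, and the gap between the lines was wider than the spread in either. The log2 fold change was 0.50 (95% interval 0.421 to 0.580, adjusted p = 5.43e-15 from edgeR). The intervals of *Orc3* and *Ccnc* overlapped, and their order turned when single libraries were left out, for example to 0.53 against 0.51 without UN-SCC679 replicate 1. No row of the table overlapped *Orc3*.

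*Smc2* (ENSMUSG00000028312.20, chromosome 4, 52439243 to 52488260) encodes an ATPase shared by condensin I and condensin II, the rings that compact chromosomes for mitosis. It was the most abundant member, with 5539 to 9214 counts per library. Its level was 1611, 1562 and 1549 normalized CPM in UN-SCC679 and 2023, 2132 and 2171 in UN-SCC680, again with no overlap. The log2 fold change was 0.42 (95% interval 0.36 to 0.484, adjusted p = 4.15e-16 from edgeR). *Smc2* alone made up 45.9% to 47.7% of the summed normalized CPM of the 6 members in a library.

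*Melk* (ENSMUSG00000035683.14, chromosome 4, 44300876 to 44364675) encodes maternal embryonic leucine zipper kinase, a serine/threonine kinase whose RNA and protein are high in dividing cells. Its level was 392.1, 384.7 and 381.2 normalized CPM in UN-SCC679 and 487.8, 508.0 and 499.5 in UN-SCC680. Both groups were tight, and they did not overlap. The log2 fold change was 0.37 (95% interval 0.291 to 0.447, adjusted p = 3.49e-11 from edgeR).

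*Cul2* (ENSMUSG00000024231.16, chromosome 18, 3382988 to 3436377) encodes the scaffold of the cullin-2 ubiquitin ligases, which use the von Hippel-Lindau protein among their substrate receptors. Its level was 436.2, 433.2 and 420.3 normalized CPM in UN-SCC679 and 408.8, 434.4 and 439.1 in UN-SCC680. The groups overlapped, and the lowest and the highest of the 6 values were both in UN-SCC680. The log2 fold change was -0.0090 (95% interval -0.089 to 0.072, adjusted p = 0.870 from edgeR), and -0.19, called lower, with scaling within agreeing positions alone. The interval allows a change of 0.940 to 1.05 times, and lies below the intervals of the other members. The difference between *Cul2* and the other members was not tested.

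**Figure D1:**
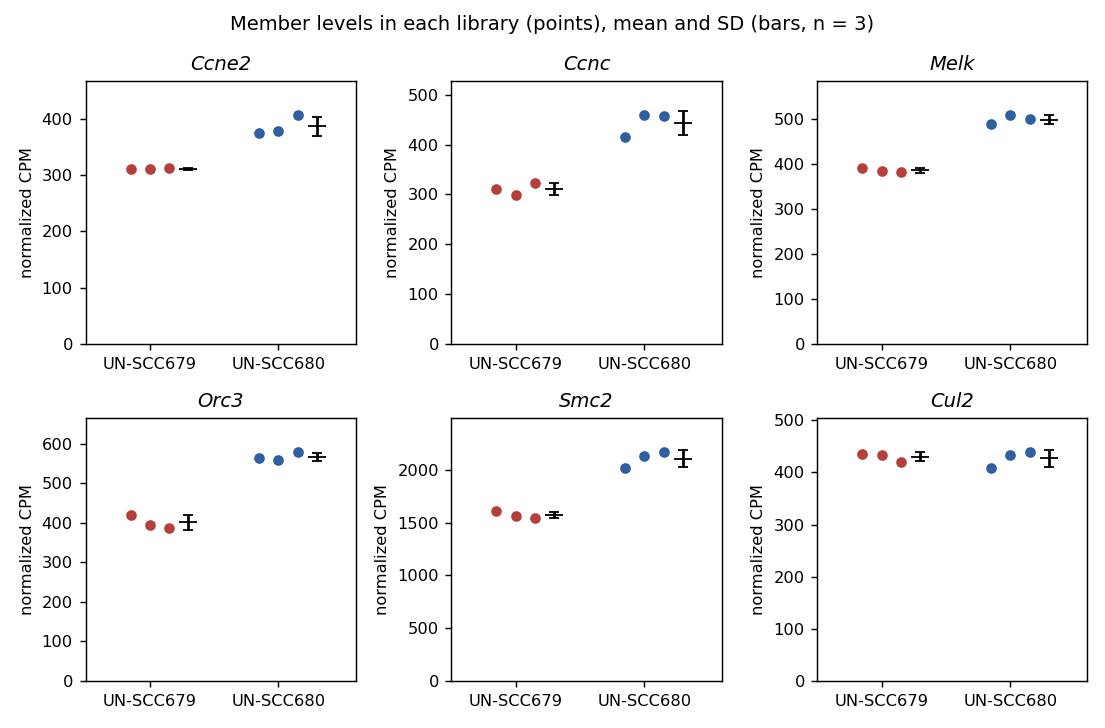
Normalized CPM (vertical axis, from 0) of the 6 members in each of the 3 libraries of UN-SCC679 and of UN-SCC680; points are libraries, and the bar beside them is the mean with its SD (n = 3). The points of the lines are apart for the 5 genes on chromosome 4, and those of *Cul2* overlap, between 408.8 and 439.1.

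Levels of different genes were compared per kilobase of the exon length that the table gives, which sums the exons of all transcripts of a gene and so understates a gene of which short forms are used. On this scale *Smc2* came first in both lines, at 287.3 ± 5.93 CPM per kb (SD over 3 libraries) in UN-SCC679 and at 384.9 ± 14.0 in UN-SCC680. *Melk* followed with 129.9 ± 1.87 and 167.7 ± 3.41. *Orc3* and *Ccnc* were the lowest, at 65.8 ± 2.96 and 60.8 ± 2.29 in UN-SCC679 and at 93.1 ± 1.77 and 86.7 ± 4.79 in UN-SCC680. The places in between changed hands. In UN-SCC679 *Cul2* (102.0 ± 2.0) was above *Ccne2* (89.1 ± 0.504), and in UN-SCC680 *Ccne2* (110.6 ± 4.88) was above *Cul2* (101.4 ± 3.87). No neighbors in the order had overlapping library values in either line, the closest being *Orc3*, with a lowest value of 63.4 CPM per kb, and *Ccnc*, with a highest value of 63.0, both in UN-SCC679.

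The increase of the members on chromosome 4 was of the size seen along that segment. Of the 249 other rows tested there, 104 were higher in UN-SCC680 (41.8%) and 29 lower, and their median log2 fold change was 0.27, against -0.0030 over all 8987 rows. The quartiles of these other rows were -0.060 and 0.54, and all 5 members lay between them. *Ccne2* was exceeded by 117 of the 249 rows and *Ccnc* by 68. Agreeing rows outside chromosome 4 went the other way, with 15 of 94 higher, 37 lower and a median of -0.15. In the chromosome 18 segment 2 of the 13 other rows were higher, none lower, and the median was 0.18. DNA copy number was not measured here, and the part of the segment in the members' difference was not tested.

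**Figure D2:**
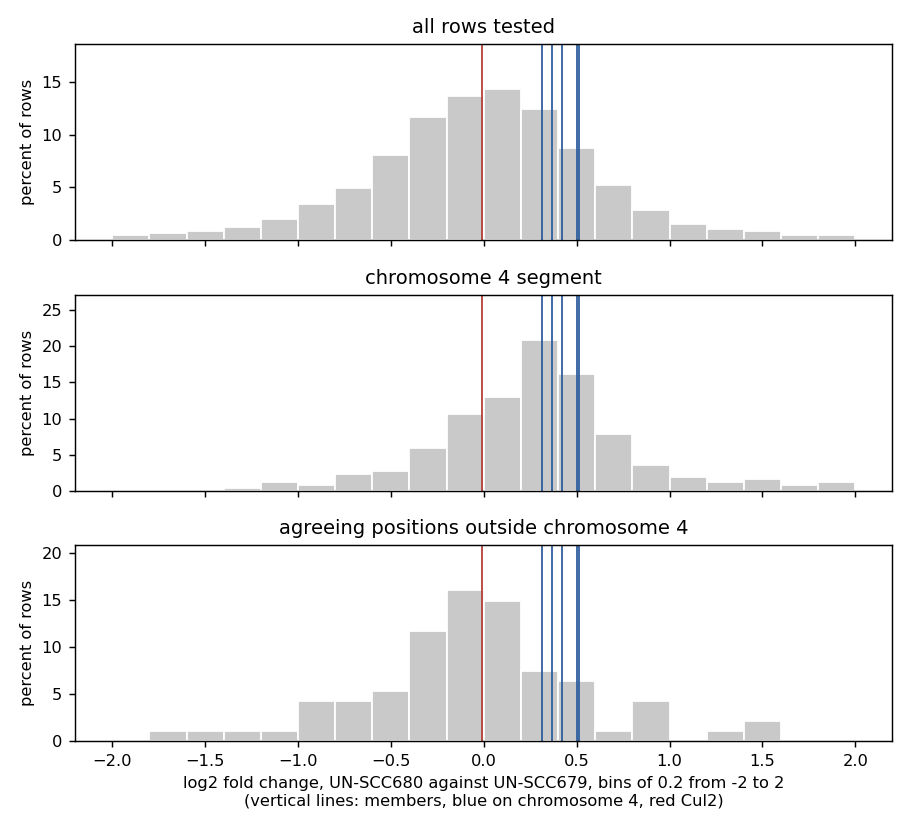
Percent of rows (vertical axis) in bins of 0.2 of the log2 fold change of UN-SCC680 against UN-SCC679, for all 8987 rows tested, the 254 rows of the chromosome 4 segment and the 94 agreeing rows outside chromosome 4; vertical lines are the members, blue on chromosome 4 and red for *Cul2*. The blue lines stand right of the middle of all rows and inside the bulk of the segment, whose median with the members was 0.29; 4.93%, 7.87% and 17.0% of the rows lie outside the plotted range.

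Close to the members the picture was mixed. Within 1 Mb of the start site of *Ccne2*, 13 of 25 tested rows were higher in UN-SCC680 and 1 was lower, with a median log2 fold change of 0.34. The same counts were 6 of 11 and 0 near *Orc3* (median 0.34), 9 of 30 and 0 near *Melk* (median 0.23), 3 of 7 and 2 near *Ccnc* (median 0.27), and 2 of 6 and 1 near *Smc2* (median 0.59). Single neighbors moved far more than the members, from -2.01 to 2.55 near *Ccne2* and up to 6.75 near *Melk*. None of the 7 rows near *Cul2* was called by edgeR at the limit of 5e-05, and their median was 0.18.

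**Figure D3:**
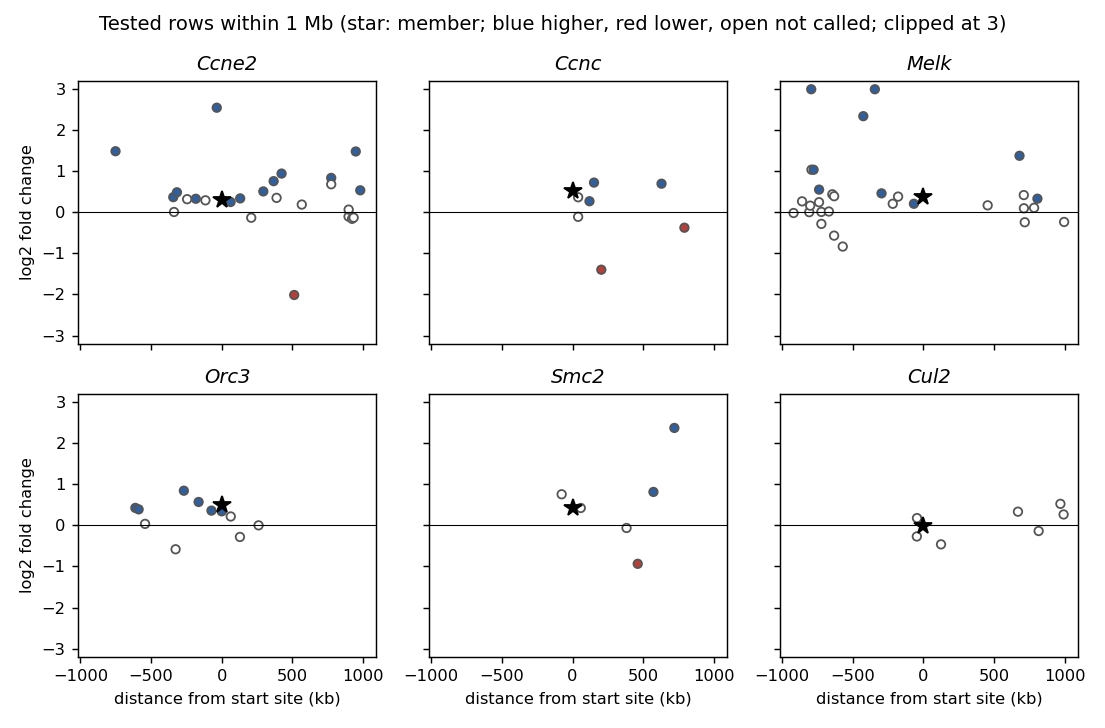
Log2 fold change of UN-SCC680 against UN-SCC679 (vertical axis, clipped at 3) of tested rows at agreeing positions, by the distance of their start site from that of the member (horizontal axis, kb, positive downstream); the star is the member, blue points are called higher, red lower and open points neither. Called increases lie on both sides of *Ccne2* and *Melk*, and upstream of *Orc3* or at its start site, with 1 called decrease among the neighbors of these 3 genes. Those of *Ccnc* and *Smc2* lie downstream, beside 2 and 1 called decreases. Upstream, *Ccnc* had no tested row and *Smc2* had 1, at -77.0 kb and not called. The 7 neighbors of *Cul2* are open.

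Other genes were taken from 7 lists of 323 genes in all, of which 20 lay at agreeing positions, the members included. The lists cover the cell cycle and replication, and also the Mediator complex and cullin ligases, whose genes are not all cell cycle genes. Of these 20 genes 13 were higher in UN-SCC680, 1 was lower and 6 were not called, with a median log2 fold change of 0.38. Without the members the counts were 8, 1 and 5 of 14 and the median 0.31. Of all 354 tested rows at agreeing positions, members included, 35.3% were higher and 18.9% lower. In the chromosome 4 segment these shares were 42.9% and 11.4%, and over all 8987 rows 15.3% and 15.2%. They are the background for the counts of listed genes here and below. Of the 14 listed genes that are not members, *Rpa3*, *Zc3hc1* and *Klhdc10* lie on chromosome 6, *Ccny* and *Esco1* on chromosome 18 and the rest on chromosome 4. The remaining listed genes were not used here.

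Among the replication genes all 3 that could be read were higher. Beside *Orc3* these were *Rpa3*, the small subunit of the single-strand binding protein RPA, and *Mms22l*, which with Tonsl acts at damaged replication forks. *Rpa3* went from 112.9 ± 2.81 to 159.1 ± 2.31 normalized CPM (SD, n = 3 each), or 0.50 as a log2 fold change, and lies on chromosome 6. *Mms22l*, on chromosome 4, had a log2 fold change of 0.49. All 3 cyclin genes were higher as well, the third being *Ccny* on chromosome 18, which encodes the membrane-bound cyclin Y, with 430.9 ± 20.4 and 590.7 ± 11.2 normalized CPM (SD, n = 3 each) and a difference of 0.45 on the log2 scale.

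Of the genes for mitosis and centrosomes, *Kif24*, a kinesin of the centriole, was higher with a log2 fold change of 0.51. *Zc3hc1*, which encodes the cyclin B1 regulator NIPA, was lower, from 309.5 ± 16.6 to 238.4 ± 3.35 normalized CPM (SD, n = 3 each). Its log2 fold change was -0.38, with an edgeR adjusted p of 2.19e-09. *Casp8ap2*, which encodes FLASH, a factor for histone RNA in S phase, was higher by 0.41 on the log2 scale. *Esco1*, the acetyltransferase of cohesin and the only other gene of the SMC list that could be read, was not called, with 0.087 on the log2 scale and an edgeR adjusted p of 0.190.

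Of the 8 readable genes of the cullin ligase list, *Cul2* included, 3 were higher and 5 were not called, and the median log2 fold change was 0.10. *Fbxl4*, an F-box gene, had the largest increase among the 20 listed genes that could be read, from 96.9 ± 4.05 to 157.4 ± 3.39 normalized CPM (SD, n = 3 each), or 0.70 on the log2 scale. *Dcaf12*, a receptor gene of cullin-4 ligases, and *Ube2r2*, which encodes a ubiquitin-conjugating enzyme of cullin ligases, had 0.39 and 0.23. *Klhdc10*, a substrate receptor that works with Cul2, had 0.089 (adjusted p = 0.0242 from edgeR). *Fbxo10* and *Dcaf10* had 0.11 and -0.091. *Klhl32* had -0.54 on 16 to 26 counts per library, with a 95% interval of -1.06 to -0.013 (adjusted p = 0.0727 from edgeR).

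**Figure D4:**
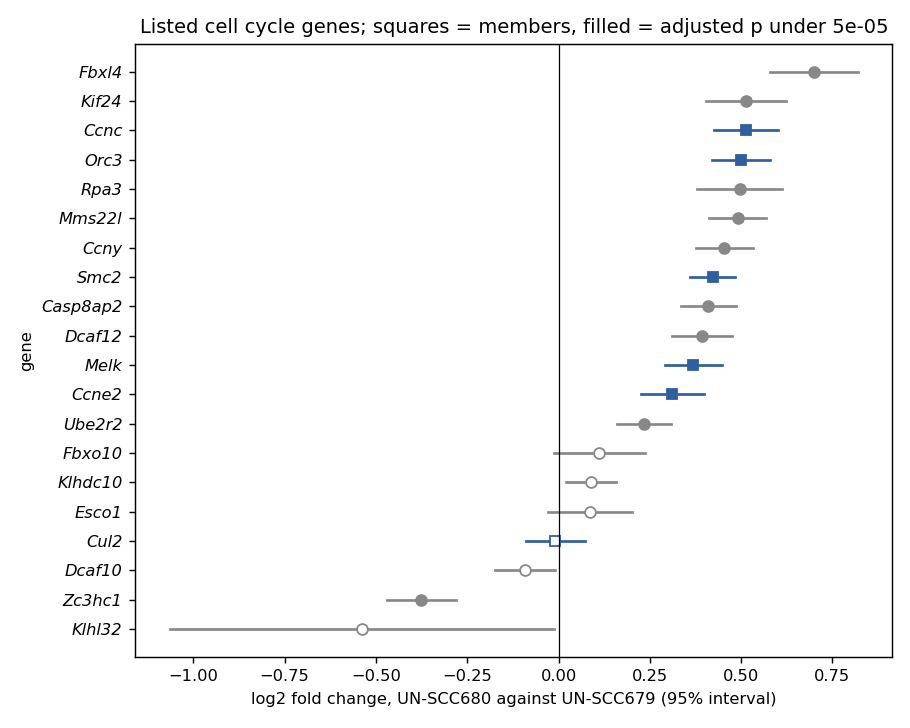
Log2 fold change of UN-SCC680 against UN-SCC679 (horizontal axis) with its 95% interval for the 20 listed genes at agreeing positions; squares are the 6 members, circles the other 14 genes, and filled symbols passed the adjusted limit of 5e-05. Filled symbols lie right of 0 for 13 genes and left of it for *Zc3hc1* alone.

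Likeness of pattern was measured by the distance between the 6 library values of 2 genes, as log2 CPM centered on the mean of each gene, over 339 named genes at agreeing positions. This distance includes the difference between the lines, so genes with a like log2 fold change come out near each other. Shared regulation was not tested. The nearest to *Smc2* was *Impad1*, at a distance of 0.010, followed by *3110043O21Rik* at 0.035. *Ccne2* was nearest to *Tmeff1* (0.047) and *1810074P20Rik* (0.078), and *Melk* to *Otud6b* (0.053) and *Dpy19l4* (0.058). *Ccnc* was nearest to *Rngtt* (0.068) and to *Fam3c* on chromosome 6 (0.075). *Orc3* was nearest to *Rpa3* on chromosome 6 (0.066) and, almost as near, *Nfx1* on chromosome 4 (0.068), with log2 fold changes of 0.496 and 0.497. For *Cul2* the nearest were *Rad23b* and *Wwp1*, both at 0.057 and both on chromosome 4.

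Choice of the rows used for scaling moved every member. With scaling and fit within the 353 agreeing rows alone, the log2 fold change of agreeing rows moved by a median of -0.186 over 351 genes. *Ccnc*, *Orc3*, *Smc2* and *Melk* then had 0.33, 0.31, 0.24 and 0.18 and were still called. *Ccne2* had 0.12 and lost its call (adjusted p = 0.00371 from edgeR), and *Cul2* had -0.19 and was called lower (adjusted p = 1.22e-05 from edgeR). Of the 20 listed genes 11 were then higher and 3 lower, *Dcaf10* (-0.28) among the latter, *Ube2r2* lost its call with 0.048, and *Klhdc10*, *Fbxo10* and *Esco1*, not called in either fit, changed sign. In that fit 72.2% of the rows are of the chromosome 4 segment, which had 74 rows higher and 51 lower of 255.

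**Figure D5:**
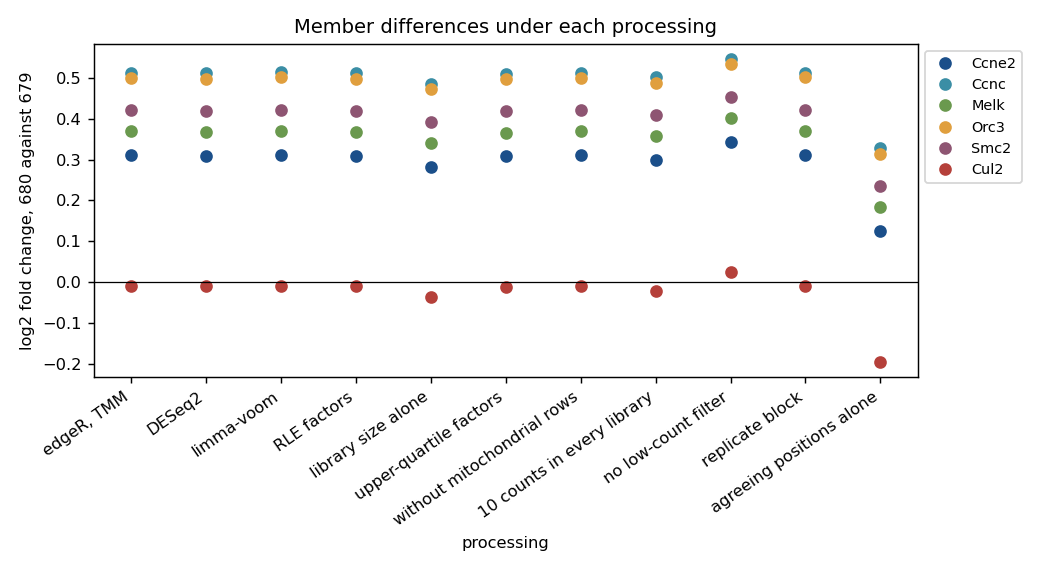
Log2 fold change of UN-SCC680 against UN-SCC679 (vertical axis) of the 6 members under each processing (horizontal axis), with the fit used above at the left. In 10 of the 11 fits shown the 5 members on chromosome 4 lie between 0.282 and 0.546 and *Cul2* between -0.037 and 0.024; in the last, scaled within agreeing positions alone, all 6 are lower.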

How the data were processed

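The table that the authors deposited holds whole, unnormalized read counts of Ensembl genes in each library, beside exon positions and summed exon length. The paper's methods name trimming with Trimmomatic, Kallisto against mm10 and DESeq2, and the labels name featureCounts and mm10. The annotation release and the strand setting are not given in the sources used here. Columns were matched to libraries by line and replicate number, and 0 value columns were unused. Symbols were found for 31021 of 55359 rows, and 0 rows lacked an identifier.

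A row was read as a gene if its start or end lay within 10 bases of RefSeq GRCm38.p6 or if it lay in the segments named in the report. Counts were filtered with filterByExpr, scaled by TMM over all rows (factors 0.985 to 1.01) and tested with edgeR's quasi-likelihood test, without covariates, with Benjamini-Hochberg adjustment over 8987 rows. Standard errors were derived from the F statistic and intervals are 95%. Log2 CPM used a prior count of 2. The test was checked on simulated data. Libraries of a line differed by more than sampling noise (chi-square per degree of freedom 1.12 to 1.57), so none was treated as a library deposited 2 times. This does not show that they are separate cultures. Libraries of the same replicate number showed little correlation between the lines in their deviations over all rows tested (-0.0382, -0.000524 and -0.0218). This does not exclude a weak pairing.

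The members and lists were chosen with earlier results of these data known. Named were the members, all listed genes at agreeing positions, the 2 genes nearest in pattern to each member, genes overlapping a member, and *Col1a2* from the marker lists. Alternatives were DESeq2, limma-voom, other scalings, filters and limits, the replicate block and leaving out each library. The fits used edgeR 4.0.16, DESeq2 1.42.0 and limma 3.58.1 under R 4.3.3, and the rest pandas 2.3.3, NumPy 2.4.6 and SciPy 1.17.1 under Python 3.11.15.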

Additional observations from a re-analysis of the deposited data

How the results depend on the processing

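*Ccnc*, *Orc3*, *Smc2* and *Melk* kept their direction and their call in all 16 other fits, and *Ccne2* in 15. Scaling within agreeing positions alone gave 0.125 for *Ccne2*, which was not called, and -0.195 for *Cul2*, which was called lower. *Cul2*, never called otherwise, turned to 0.024 with no low-count filter and to 0.031 without UN-SCC680 replicate 1. With each library left out in turn, *Ccne2* ran from 0.283 to 0.340, *Ccnc* from 0.483 to 0.567, *Melk* from 0.36 to 0.392, *Orc3* from 0.475 to 0.533, *Smc2* from 0.409 to 0.459 and *Cul2* from -0.025 to 0.031. The replicate block gave 5 members, 14 listed genes and 2523 rows, and changed no call of a member.

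The 5 called members became 0 under the added demand of a log2 change beyond 1 in size, as did the 14 listed genes. With start and end both agreeing, 3 of 4 listed genes were called, since fewer genes were tested. The 2736 rows became 5248 at an adjusted p under 0.05, 1024 with a log2 fold change over 1 and 184 of 353 with agreeing positions alone (84 higher, against 1371 of 2736). Leaving out a library gave 2226 to 2611 rows, 13 to 14 listed genes and 5 members each time. CPM by library size alone moved 11 of 12 member levels by less than 1 SD; *Ccne2* in UN-SCC679 went to 314.6. Depth was no limit for the members, with at least 1121 counts in every library, but was for *Klhl32*.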
